A study of Mus musculus with 12 samples.

Results

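The comparison described here set mouse PYMT cells given TGFB2 and BMP4 together (group BMP4-TGFB2, 3 libraries) against the same cells given neither ligand (group NT, 3 libraries), which are 6 of the 12 libraries of the study. PYMT stands for the polyoma virus middle T antigen, the oncogene of a widely used mouse mammary tumour model, and the labels give these cells as a cell line without naming a clone, a passage or a host strain. Cells grew in matrigel, a laminin-rich gel that holds them in 3 dimensions. Ligands were present for 3 days at 5 ng/mL each, the medium was then changed, and the cells were taken out of the gel 2 days later. The remaining groups received TGFB2 alone or BMP4 alone at the same dose and times, and the study set these treatments side by side to learn which gene programs relate to dormancy, the state in which tumour cells stop dividing for a long time. The members of the comparison were all 15319 genes of 54347 in the deposited table with enough counts to test. Replicates are called biological, nothing says what separated them, and p-values therefore measure only the spread between these samples. In bulk RNA, fewer cells of a type and less RNA per cell cannot be told apart.

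Ligands of the TGFb family bind paired type I and type II receptor kinases, which phosphorylate SMAD proteins that enter the nucleus with SMAD4 and switch genes on or off. TGFB2 signals mainly through SMAD2 and SMAD3 and is known for halting epithelial growth and for driving matrix production and epithelial-mesenchymal transition, in which cells loosen their junctions and take on fibroblast-like traits. BMP4 signals through SMAD1 and SMAD5, whose best known targets are the Id genes, and both arms raise the inhibitory SMADs that close the loop. In the mammary gland, luminal cells secrete milk under the control of prolactin, and TGFb signalling is known to hold that differentiation back.

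Total counts ran from 33401021 to 37547368 in NT and from 28543062 to 36319196 with both ligands, and mitochondrially encoded transcripts took 1.14% to 1.95% and 1.77% to 2.91% of them. CPM is a gene's count scaled to the effective library total, or, in the sums of markers, to the plain library total. The 12 markers of mammary epithelium summed to 5252 to 6519 CPM in NT and to 6242 to 6863 CPM with both ligands. Their sum was thus high in every library, although 1 of the 12 rose and 3 fell. Markers of leukocytes summed to 3.36 to 6.15 CPM over 15 genes in NT and to 12.3 to 12.5 CPM with both ligands. Csf1r (4.09 on the log2 scale), Cd68 (0.90) and Laptm5 (1.96) rose, and Coro1a, Lyz2 and Ptprc did not pass. Csf1r shares exons with Hmgxb3, which averaged 2396% of its CPM. Of the 3 rises 1 passed without the block, in the fit of the 6 libraries and without replicate 1, and Laptm5 lost its call in 11 of 15 alternative settings and Cd68 in 5. The part of leukocyte RNA in the results was not tested. Those of endothelium summed to at most 6.65 and 7.30 CPM over 12 genes, and none of 9 tested passed. Ptprc, the CD45 antigen of leukocytes, stood at 0.157, 0.425 and 0.27 CPM in NT and 0.221, 0.316 and 0.36 CPM with both ligands. It was named after its values were seen, and of the 6 tested leukocyte markers 3 rose and none fell by the test. Replicate 1 libraries stood apart from the others along the second principal component of the 6 libraries (14.8% of the variance), in NT as in BMP4-TGFB2. The fit carried the replicate number as a block because the rule set for this comparison asked for it.

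Both ligands changed the expression of 6342 of the 15319 genes (41.4%) at a Benjamini-Hochberg adjusted p under 0.05 in edgeR's quasi-likelihood test. Of these, 3127 genes rose (20.4%) and 3215 fell (21%), and the median log2 fold change over all tested genes was 0.0035. Changes of at least 1 log2 unit, a doubling or halving, were found for 1424 genes that rose (9.3%) and 1353 that fell (8.83%), and 349 and 318 genes moved by at least 3 log2 units. Without the replicate block 4007 genes passed, and a fit of the 6 libraries alone with the block passed 3941. Most of what follows is organised by 59 lists of genes with a shared function, each read against these shares of all genes.

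**Figure D1:**
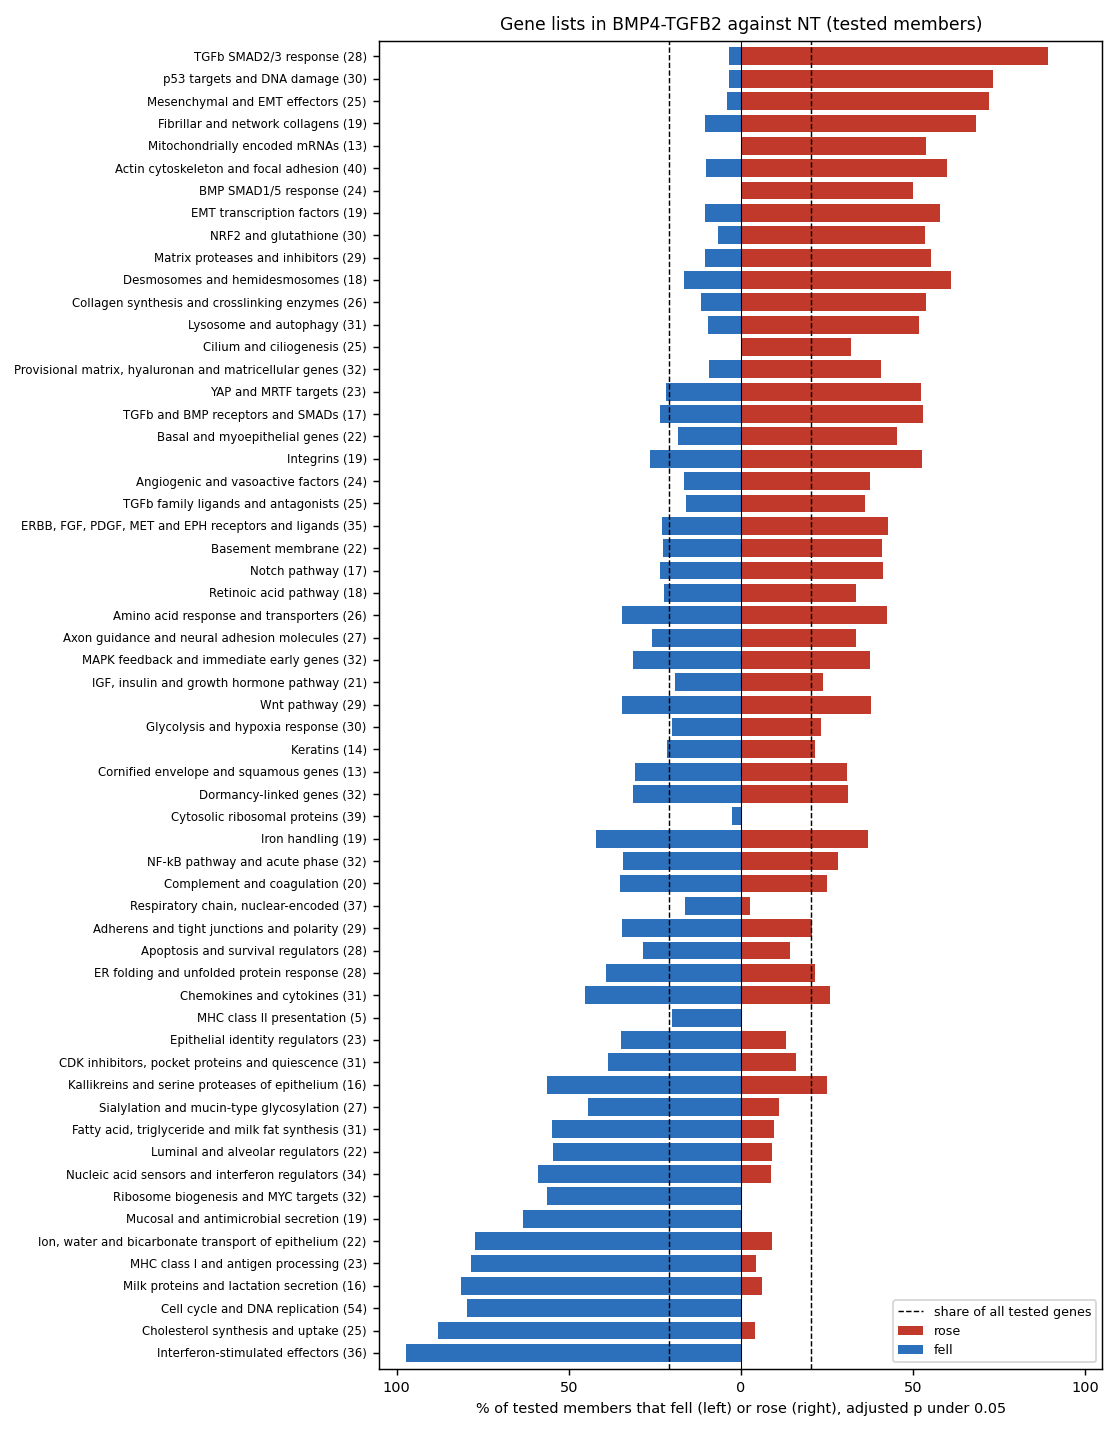
Bars give the percentage of tested members of 59 gene lists that rose (right) or fell (left) in BMP4-TGFB2 against NT at adjusted p under 0.05, with the number of tested members in parentheses; dashed lines mark the shares over all tested genes, 20.4% that rose and 21% that fell. Interferon-stimulated effectors (35 of 36 fell) stand at the bottom and genes of the TGFb SMAD2/3 response (25 of 28 rose) at the top.

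Among genes with separated groups and an average log2 CPM of at least 2, the milk proteins Csn1s1 and Csn3 fell most and the receptor Adgra1 and the gelatinase Mmp9 rose most. Csn3, which encodes kappa-casein, the protein that stabilises milk micelles (chr5:87925579-87932665 in GRCm38), was at 157, 217 and 116 CPM in the NT libraries and at 0.552, 0.668 and 2.19 CPM with both ligands. It fell by 7.22 ± 0.51 log2 units (SE, as after every ± on a log2 difference; adjusted p = 3.93e-06), and the groups were far apart. Adgra1, an adhesion G protein-coupled receptor (chr7:139834174-139878088), went the other way, from 0.601, 0.652 and 1.11 CPM to 112, 140.1 and 144 CPM, and rose by 7.47 ± 0.59 log2 units (adjusted p = 7.92e-06). The other large falls were of Csn1s1 (-7.27), the GABA receptor subunit Gabrp (-6.81), prolactin-induced protein Pip (-6.73), the immunoglobulin transporter Pigr (-6.73), lactoferrin Ltf (-6.66), the sialyltransferase St8sia6 (-6.53), the ERBB ligand Nrg2 (-6.48), the chemokines Ccl28 (-6.40) and Ccl9 (-6.18), the RAS GTPase activator Rasal1 (-6.18) and the kallikrein Klk14 (-6.17), all as log2 fold changes. The other large rises were of gelatinase Mmp9 (7.07), the receptor phosphatase Ptpru (6.37), integrin beta 3 (Itgb3, 6.13), Ctla2a (5.87), hyaluronan synthase Has2 (5.83), syndecan Sdc3 (5.63), Olfm2 (5.57), the acyl-CoA synthetase Acsbg1 (5.47), the scavenger receptor Stab1 (5.41) and the mechanosensitive channel Piezo2 (5.34). Ctla2a and Stab1 share exons with partners that averaged 20.1% and 99.4% of their own CPM, and the unstranded reads do not separate them. For each of these 23 genes every library of one group lay above every library of the other, a condition of their choice; over all tested genes such separation was found for 20.8% (higher) and 20.5% (lower).

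**Figure D2:**
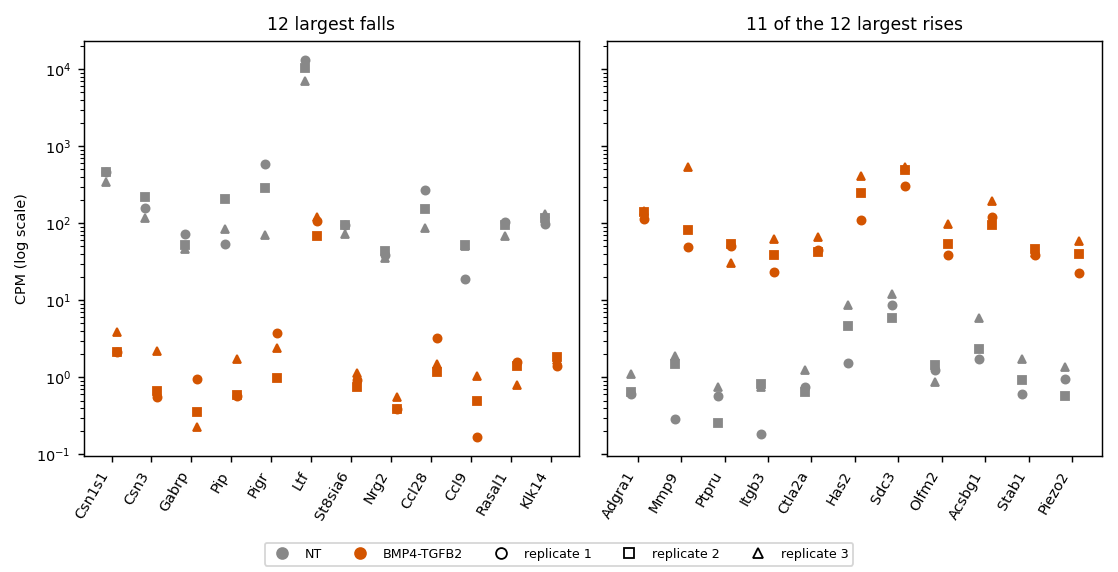
Points give CPM on a log scale in each NT library (grey) and each BMP4-TGFB2 library (orange) for the 12 largest falls and 11 of the 12 largest rises among genes with separated groups and an average log2 CPM of at least 2, with a marker shape for each replicate number. Ltf falls from the highest level of the 23, 13352, 10345 and 7051 CPM in NT replicates 1, 2 and 3, and Mmp9 reaches 48.6, 81.4 and 536 CPM from at most 1.92 CPM.

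Genes of both signalling arms were raised at harvest, 2 days after the medium change. The list of TGFb SMAD2/3 response genes had 25 rises and 1 fall among 28 tested members, with a median log2 fold change of 1.64. Pmepa1, a membrane protein that sequesters receptor SMADs, rose by 2.23, the helix-loop-helix repressor Bhlhe40 by 2.11 and the AP-1 subunit Junb by 2.14; Junb shares exons with Prdx2, which had more than 10% of its CPM. In the BMP SMAD1/5 list 12 of 24 tested members rose, none of them fell by the test, and the median was 1.01. The median of that list against NT was 0.49 with TGFB2 alone and 1.46 with BMP4 alone. With both ligands against TGFB2 alone, 1 of the 24 was called higher and none lower (median 0.78). Smad7, the inhibitory SMAD common to both arms, was at 49.5, 37.3 and 52.3 CPM in NT and 199.6, 218 and 203 CPM with both ligands. Smad6, the inhibitory SMAD tied to the BMP arm, went from 11.7, 7.14 and 13.1 CPM to 55.6, 69.8 and 48.6 CPM. The inhibitory pair thus rose in all libraries, Smad7 by 2.17 ± 0.11 (adjusted p = 9.15e-07) and Smad6 by 2.45 ± 0.25 (adjusted p = 4.21e-05). Bambi, a decoy receptor, rose by 2.58 and Nog, which encodes the BMP-binding antagonist noggin, by 6.32.

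The Id genes, whose products block helix-loop-helix factors, did not move alike. Id1 rose from 194, 167 and 225 CPM to 405, 369 and 329 CPM (log2 fold change 0.91 ± 0.15, adjusted p = 0.000982). Id3 rose from 98.3, 113 and 174 CPM to 247, 297 and 252 CPM (1.07 ± 0.23, adjusted p = 0.00413). Id2, at 318, 306 and 302 CPM in NT and 316, 290.4 and 228 CPM with both ligands, did not pass (-0.17 ± 0.11, adjusted p = 0.246), and its libraries overlapped.

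Receptors and ligands of the family changed in both directions. Tgfbr1, the type I TGFb receptor kinase, rose in every replicate, from 72.9, 43.5 and 66.7 CPM to 118, 146 and 139 CPM (1.15 ± 0.18, adjusted p = 0.000631). Tgfbr3, the co-receptor betaglycan that presents TGFB2 to the signalling receptors, dropped from 40.9, 12.8 and 5.13 CPM to 0.469, 1.3 and 0.785 CPM (-4.37 ± 0.72, adjusted p = 0.000858). Tgfbr2, the type II kinase, fell modestly (-0.52), while Acvr1, a type I BMP and activin receptor, rose (1.17), as did Smad1 (0.80). Bmpr1a, a type I BMP receptor, rose by 0.32 and lost its call in 4 of 15 alternative settings. In all, 9 of 17 tested receptors and SMADs rose and 4 fell, with 4 and 2 in the fit of the 6 libraries and 3 and 4 rises without replicates 2 and 3. The cells' own Tgfb2 message fell from 32, 25.1 and 24.9 CPM to 10.3, 10.9 and 5.04 CPM (-1.72 ± 0.18, adjusted p = 5.44e-05), while that of Bmp4, at 9.72, 3.12 and 5.43 and 4.64, 5.84 and 3.6 CPM, did not pass (adjusted p = 0.452). Among other ligands and antagonists, Bmp2 (3.38), the activin subunit Inhba (3.23), the activin antagonist Fstl3 (2.62) and the procollagen protease Bmp1 (2.31) rose; the list counted 9 rises and 4 falls among 25 tested genes.

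Secretion was among the functions lost. In the list of milk proteins and lactation, 13 of 16 tested genes fell and 1 rose (median -2.27). The list held 24 genes, and the milk genes Csn2, Wap and Lalba were among those with too few counts to test. They had at most 8, 18 and 32.1 counts in any library of the study, so a loss could not be seen for them. Ltf, the iron-binding milk and mucosal defence protein lactoferrin (chr9:111019271-111042767), was at 13352, 10345 and 7051 CPM in NT and 107, 68.2 and 121 CPM with both ligands (log2 fold change -6.66 ± 0.37, adjusted p = 1.13e-06). Per length it stood at 8727 ± 2987 TPM (a level scaled for length and depth; SD, n = 3) in NT, above Krt8 at 1098 ± 104 TPM, and at 92.2 ± 19.4 TPM with both ligands, when Krt8 stood at 1283 ± 104 TPM. The phosphate transporter Slc34a2, which loads milk with phosphate, fell from 71.8, 97.3 and 71.1 CPM to 3.81, 5.8 and 2.39 CPM (-4.41 ± 0.20). Spp1, the secreted phosphoprotein osteopontin, fell by less, from 1275, 1500.4 and 1594 CPM to 327, 587 and 417 CPM (-1.76 ± 0.16), and the member that rose was Plin2 (1.42), which coats lipid droplets.

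Regulators of the secretory luminal state fell with its products. Elf5, the ETS factor that specifies alveolar cells (chr2:103411688-103450989), went from 160.2, 249 and 189.9 CPM to 7.06, 10.3 and 5.27 CPM and fell by 4.76 ± 0.17 log2 units (adjusted p = 1.44e-07). Prlr, the prolactin receptor, went from 189, 164 and 152 CPM to 16.2, 25 and 9.19 CPM (-3.45 ± 0.22, adjusted p = 2.44e-06). For both genes the groups did not overlap. Stat5a, the transcription factor downstream of that receptor, was lower (log2 fold change -1.54), although it shares exons with Stat3, which averaged 807% of its CPM. Xbp1, a factor of secretory cells, was lower as well (-0.85), and so were the epithelial ETS factor Ehf (-1.99) and Cd14 (-2.42), a marker of luminal progenitors. Aldh1a3, a retinaldehyde dehydrogenase also used as a luminal progenitor marker, went against them and rose by 3.56. Of 22 tested luminal and alveolar regulators 12 fell and 2 rose (median -0.73).

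Genes of mucosal defence and of ion transport fell as well. Pigr, the receptor that carries antibodies across epithelium, was at 589.5, 286 and 70.7 CPM in NT and 3.81, 0.985 and 2.39 CPM with both ligands. Ccl28, the mucosal chemokine that draws antibody-secreting cells, was at 268, 154 and 85.6 and 3.2, 1.16 and 1.5 CPM. In both genes NT replicate 1 was highest and NT replicate 3 lowest, and even the lowest NT library lay far above the highest with both ligands. Pigr fell by 6.73 ± 0.63 log2 units (adjusted p = 2.43e-05) and Ccl28 fell by 6.40 ± 0.37 (adjusted p = 1.23e-06). The neighbouring membrane mucins Muc4 (-6.36) and Muc20 (-4.04), which share exons and where Muc20 had the larger CPM, the whey-acidic protein family member Wfdc18 (-4.70) and lipocalin Lcn2 (-2.12) fell too, and in this list 12 of 19 tested genes fell and none rose by the test (median -1.83). Among 22 tested ion, water and bicarbonate transport genes 17 fell and 2 rose (median -1.62). Atp1b1, the beta subunit of the sodium pump, fell from 676, 417 and 365 CPM to 46.1, 62.2 and 23.6 CPM (-3.55 ± 0.28, adjusted p = 8.55e-06), and Car12, a surface carbonic anhydrase, from 179, 85.5 and 44.9 CPM to 4.47, 4.4 and 2.58 CPM (-4.60 ± 0.32). The exceptions were Fxyd5, dysadherin, a modulator of that pump, which rose from 12.8, 8.93 and 14.1 to 119, 97.4 and 108 CPM, and the transporter Slc4a11 (2.33).

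The lists of surface proteolysis and glycosylation held more falls than rises. Of 16 kallikreins and epithelial serine proteases 9 fell and 4 rose (median -1.40). Klk10 was at 208, 1026 and 1014 CPM in NT, where replicate 1 was lowest, and at 8.78, 12.3 and 14.7 CPM with both ligands (-5.80 ± 0.41, adjusted p = 3.85e-06). Tmprss4 (-4.47) and Tmprss2 (-1.74), membrane-anchored serine proteases, fell, whereas Prss22 (2.29) and the protease inhibitor Spint1 (0.77) rose. Kallikreins lie side by side and resemble each other, and the split of reads among them is uncertain. In the list of sialylation and mucin-type glycosylation 12 of 27 tested genes fell and 3 rose: St8sia6 and the fucosyltransferase Fut9 (-2.80) were lower and the branching enzyme Gcnt2 (2.49) higher.

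Interferon-stimulated genes fell together. Of 36 tested interferon-stimulated effectors 35 fell, all 35 by at least 1 log2 unit, and none rose by the test; the median was -3.21. These genes are switched on through the interferon-stimulated response element (ISRE), which IRFs bind. The core of that element, GAAA followed by any 2 bases and GAAA again, searched on both strands of the window from 250 bases before to 50 bases after each RefSeq start (GRCm38.p6), was found for 16 of the 28 members with a window (57.1%). It was found for 3.70% of the 11043 tested genes with a window and in 3.44% of all 32851 windows. The windows of Gbp3, Oas1a and Oas3, which had the smallest p of the list among genes with the core, are shown from 250 bases before the start up to the start, 5′ to 3′ on the gene's strand, with every match of the core in capitals on either strand. Gbp3 lies on the plus strand at chr3:142559794-142560043, Oas1a on the minus strand at chr5:120907526-120907775 and Oas3 on the minus strand at chr5:120777660-120777909.
Gbp3: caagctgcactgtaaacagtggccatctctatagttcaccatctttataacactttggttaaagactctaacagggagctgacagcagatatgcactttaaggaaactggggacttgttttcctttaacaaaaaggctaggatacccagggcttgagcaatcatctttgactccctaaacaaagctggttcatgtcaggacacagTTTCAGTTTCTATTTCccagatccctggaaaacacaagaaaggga
Oas1a: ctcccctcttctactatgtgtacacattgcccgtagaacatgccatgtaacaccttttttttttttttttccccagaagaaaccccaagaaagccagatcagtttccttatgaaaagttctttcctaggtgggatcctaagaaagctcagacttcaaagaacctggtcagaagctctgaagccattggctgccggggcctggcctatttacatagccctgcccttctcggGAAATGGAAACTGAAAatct
Oas3: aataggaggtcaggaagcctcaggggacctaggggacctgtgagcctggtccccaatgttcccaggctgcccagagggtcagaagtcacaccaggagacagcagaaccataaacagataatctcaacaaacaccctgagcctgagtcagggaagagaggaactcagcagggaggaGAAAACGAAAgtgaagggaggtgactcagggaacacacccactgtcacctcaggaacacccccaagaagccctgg
Matches begin 45 bases before the start in Gbp3, 20 in Oas1a and 75 in Oas3, and in Gbp3 and Oas1a a pair of them overlaps. A match is a string of letters and was not tested for binding.

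Gbp3, a guanylate-binding protein of antimicrobial defence, was at 188, 96.7 and 60.4 CPM in NT and 6.95, 5.87 and 6.05 CPM with both ligands. Oas3, a sensor of double-stranded RNA that activates RNase L, was at 243, 147 and 110.3 CPM and 5.99, 8.02 and 9.62 CPM. In NT replicate 1 was highest and replicate 3 lowest for both, whereas the treated libraries lay within a narrow band. Oas3 fell by 4.37 ± 0.30 log2 units (adjusted p = 3.65e-06), Gbp3 fell by 4.08 ± 0.25 (adjusted p = 1.83e-06), and the paralog Oas1a fell by 3.47 ± 0.24; Oas members resemble each other, and their split is uncertain. Rtp4 (-3.46) and Parp9 (-1.88, which shares exons with Dtx3l) fell as well.

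Transcription factors of the interferon response fell too. Irf7, the factor that amplifies type I interferon, was at 459.6, 219.6 and 121 CPM in NT and 8.78, 7.98 and 9.88 CPM with both ligands (-4.72 ± 0.36, adjusted p = 6.98e-06), although its partner Phrf1, which shares exons, averaged 71% of its CPM. Irf9 (-1.74, exons shared with Rnf31), the RNA helicase Dhx58 (-4.09) and the receptor Tlr3 (-2.40) fell. In the list of nucleic acid sensors and interferon regulators 20 of 34 tested genes fell and 3 rose (median -0.53). The ISRE core was found for 6 of 26 members of that list with a window.

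Antigen presentation fell by less. H2-K1, a classical class I heavy chain, was at 743, 658 and 507 CPM in NT and 299, 278 and 284 CPM with both ligands (-1.13 ± 0.13, adjusted p = 0.000101). Its level with both ligands was alike in the 3 libraries and below every NT library. H2-D1 (-0.70) and H2-T22 (-1.37) fell, as did the immunoproteasome subunit Psmb8 (-2.59) and the peptide transporter subunit Tap2 (-1.67). Class I genes are near copies of each other and their read assignment is uncertain. In total 18 of 23 tested class I and processing genes fell and 1 rose (median -1.08). Ciita, the class II transactivator, passed in the main fit (-2.10, adjusted p = 0.0446) and lost its call in 10 of 15 other settings, and it shares exons with Dexi, which had many times its CPM.

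Chemokines and inflammatory genes moved in both directions. Of 31 tested chemokines and cytokines 14 fell and 8 rose: besides Ccl28, Ccl20 (-4.77), which attracts cells with the receptor CCR6, the neutrophil chemokine Cxcl3 (-4.59, one of a family of near copies), Tnf (-2.69) and Csf3 (-1.97) fell, and Vegfa (2.27) rose; 5 rises passed without the block. In the list of NF-kB and acute phase genes 11 of 32 fell and 9 rose; only 3 fell without the block, in the fit of the 6 libraries or without replicate 3, the lowest over all settings, 4 fell without NT replicate 1 or BMP4-TGFB2 replicate 3, and 5 without replicate 1. Haptoglobin Hp (-3.11) and Tnfaip2 (-1.93) fell, whereas the feedback enzyme Tnfaip3 (1.11) and the prostaglandin synthase Ptges (2.15) rose. Among complement and coagulation genes, 7 of 20 fell and 5 rose. Clu, which encodes the secreted chaperone clusterin (chr14:65968483-65981547), rose from 643, 457 and 534 CPM to 7016, 10069 and 10194 CPM (4.05 ± 0.20, adjusted p = 6.99e-07) and stood at 8351 ± 1908 TPM (SD, n = 3) with both ligands, near the level Ltf had in NT. Coagulation factor F5 (-3.72) and tissue factor F3 (-2.08) were lower.

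**Figure D3:**
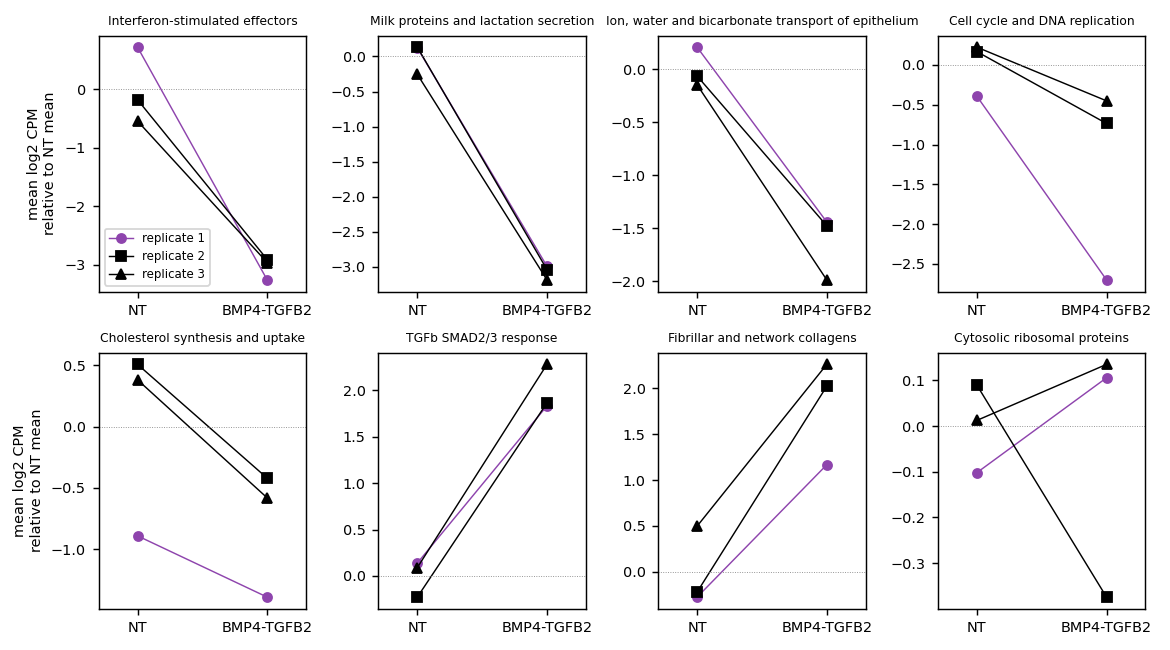
Each point is the mean log2 CPM of the tested members of a list in a library, relative to the mean of the NT libraries, and lines join libraries with the same replicate number. Interferon and milk lists fall to about -3 in each replicate, whereas cell cycle genes in replicate 1 (purple) start lower and reach -2.70 and cholesterol genes start from -0.89 in that replicate.

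Genes of proliferation fell, by amounts that differed between replicates. Of 54 tested genes of the cell cycle and DNA replication 43 fell and none rose by the test (median -1.27). Relative to the NT mean, the members averaged -0.39, 0.17 and 0.22 log2 units in NT replicates 1, 2 and 3 and -2.70, -0.74 and -0.45 with both ligands. Replicate 1 was thus lower than the others in each group, and its NT value lay close to that of the treated replicate 3. Mki67, the proliferation antigen Ki-67, was at 185, 324 and 269 CPM in NT and 9.41, 89.7 and 143 CPM with both ligands (-2.27 ± 0.55, adjusted p = 0.00782). Without the block 7 genes of the list fell and Mki67 did not pass (adjusted p = 0.163); 28 fell in the fit of the 6 libraries, 27 without NT replicate 1, 20 without replicate 2 and 47 without replicate 1.

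Members with the smallest p within that list were Ccne1, Tyms, Cdk2, Cdk6 and Ccnd3, while the G1 genes Cdk4 and Ccnd2 did not pass. Ccne1, cyclin E1, was at 18.4, 33.7 and 34.2 CPM in NT and 5.93, 10.9 and 14.2 CPM with both ligands. Cdk2, its kinase partner, was at 46.2, 59.9 and 55.2 and 23.1, 31.1 and 32.6 CPM, and in both genes all treated libraries lay below all NT libraries. Ccne1 fell by 1.50 ± 0.17 log2 units (adjusted p = 8.4e-05) and Cdk2 fell by 0.90 ± 0.09 (adjusted p = 3.69e-05). Cdk6 (-1.01), thymidylate synthase Tyms (-1.05) and Ccnd3 (-0.94, cyclin D3, exons shared with Bysl) fell too. The CHR element TTTGAA, bound by the DREAM complex that represses cell cycle genes, was found in the promoter window of 14 of 42 members with a window (33.3%) and of 14.7% of tested genes with a window. In the other lists searched its share ran from 3.85% (nucleic acid sensors and interferon regulators) to 28.6% (interferon-stimulated effectors), so it was not particular to cell cycle genes. Binding was not tested.

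Inhibitors of the cycle were not raised as a group. Of 31 tested CDK inhibitors, pocket proteins and quiescence genes 5 rose and 12 fell. Cdkn1a, which encodes p21, was the clear exception, at 329.7, 156 and 177 CPM in NT and 758, 561 and 524 CPM with both ligands (1.53 ± 0.12, adjusted p = 8.35e-06). Cdkn1b, which encodes p27, stood at 89.8, 61.4 and 57.3 and 61.9, 55.9 and 50.6 CPM and did not pass (-0.28 ± 0.11, adjusted p = 0.0653), and Cdkn2c (-1.91), the p18 inhibitor of CDK4 and CDK6, fell. Klf6 (0.75) rose and the antiproliferative Tob2 (-0.78) fell. Falls in this list numbered 8 without the block, 5 in the 6-library fit and 6 without replicate 3.

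Genes linked to dormancy split evenly, with 10 of 32 tested members up and 10 down (median 0.18). Mertk, a TAM receptor kinase, fell from 35.7, 25.9 and 11.5 CPM to 1.57, 1.37 and 0.818 CPM, and its ligand Gas6 from 274, 184 and 114 CPM to 27.2, 43.3 and 20.2 CPM. Tyro3, a TAM receptor of the same family, rose (1.10), as did the collagen receptor Ddr1 (0.87) and type III collagen (Col3a1, 1.26). Nr2f1, a nuclear receptor used as a dormancy marker, was at 6.77, 6.6 and 4.56 CPM in NT and 2.18, 3.87 and 4.35 CPM with both ligands (-0.81 ± 0.29, adjusted p = 0.045). It did not rise in any replicate, its call was lost in 8 of 15 settings, and it shares exons with A830082K12Rik, which averaged 20% of its CPM. Bhlhe41, a repressor also called DEC2, was at 94.5, 51.6 and 50.9 and 89.5, 102 and 98.9 CPM and did not pass (0.61 ± 0.22, adjusted p = 0.0516). Sox9 fell slightly (-0.43, adjusted p = 0.0306), and this call too was lost in 8 of 15 settings. Among dormancy-linked genes 7 rose and 6 fell without the block, 6 rose without replicate 2 or 3, and 5 fell without replicate 2.

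Genes of several stress responses rose. Among p53 targets and DNA damage genes 22 of 30 rose and 1 fell (median 0.63): besides Cdkn1a, the GADD45 sensors Gadd45a (2.85) and Gadd45b (2.38), the mTOR inhibitor Ddit4 (2.52) and the AKT inhibitor Phlda3 (1.21) were higher, with 13 rises left without the block and 14 without replicate 3. In the NRF2 and glutathione list 16 of 30 rose and 2 fell. Gclc, the rate-limiting enzyme of glutathione synthesis, went from 117, 58.1 and 122 CPM to 624, 701 and 317 CPM (2.46 ± 0.35, adjusted p = 0.000372), and heme oxygenase Hmox1 (2.09), sulfiredoxin Srxn1 (1.72) and superoxide dismutase Sod1 (0.72) rose. Of 31 lysosome and autophagy genes 16 rose and 3 fell, with 7 rises without the block. Sqstm1, the autophagy receptor p62, was at 949, 314 and 318 CPM in NT and 2529, 1246 and 1119.7 CPM with both ligands; replicate 1 was highest in each group, and the gene rose in every replicate (1.73 ± 0.11, adjusted p = 2.71e-06). Map1lc3b (1.36, the LC3 protein of autophagosomes, exons shared with Zcchc14) and Wipi1 (1.03) rose with it. Among 28 apoptosis and survival regulators 4 rose and 8 fell: the BH3-only genes Bmf (2.76) and Bcl2l11 (1.10) were higher and Mlkl (-1.43) and the death ligand Tnfsf10 (-4.32) lower.

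Biosynthesis fell on the lipid and ribosome side. Of 25 tested genes of cholesterol synthesis and uptake 22 fell and 1 rose (median -0.91). Lss, lanosterol synthase, was at 46, 136 and 104 CPM in NT and 20.8, 39.8 and 27.1 CPM with both ligands (-1.63 ± 0.15, adjusted p = 2.37e-05). Hmgcs1, which makes the HMG-CoA that feeds the pathway, was at 96.3, 292 and 297 and 59.4, 131 and 114 CPM. NT replicate 1 lay below treated replicates 2 and 3 for Hmgcs1, so the groups overlapped, although the gene was lower within every replicate number. Accordingly the list kept 3 falls without the block, 17 in the fit of the 6 libraries and 22 without replicate 1. Cyp51 (-1.08, exons shared with Akap9) and Acat2 (-1.09) fell with the block and lost their calls without it. The sterol regulatory element TCACNCCAC was found for 1 of 18 members with a window (Hmgcs1) and for 1.38% of tested genes with a window. In the fatty acid and triglyceride list 17 of 31 fell (11 without replicate 2 or 3) and 3 rose, with acetyl-CoA carboxylase Acaca (-1.70), the elongase Elovl6 (-2.92), the desaturase Fads2 (-1.45) and the fatty acid carrier Fabp5 (-1.99) lower.

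In the ribosome biogenesis list 18 of 32 genes fell and none rose by the test (13 falls without the block, 12 in the 6-library fit, 10 without BMP4-TGFB2 replicate 2, and 26, 9 and 6 without replicates 1, 2 and 3). Mycn (-2.18) and Mycl (-1.97) fell most among those named, and the assembly factors Nop58 (-0.56) and Rrs1 (-0.69) fell modestly. Myc itself was at 102, 73 and 95.6 CPM in NT and 87, 62.7 and 115 CPM with both ligands and did not pass (-0.06 ± 0.13, adjusted p = 0.74). Cytosolic ribosomal proteins stayed near 0, with a median of -0.06; 1 of 39 tested fell (Rpl5, -0.54, exons shared with Fam69a) and none rose by the test.

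Energy metabolism moved little and unevenly. Nuclear-encoded respiratory chain subunits had 6 falls and 1 rise among 37, all named ones under 1 log2 unit, such as Atp5c1 (-0.50) and Sdha (-0.30), and the falls numbered 1 in the 6-library fit and 12 without replicate 1. Mitochondrially encoded mRNAs had 7 rises among 13 and no fall by the test, with 3 rises without the block. mt-Nd2, a complex I subunit, was at 885, 606 and 589.6 CPM in NT and 1739, 1277 and 1012 CPM with both ligands (0.94 ± 0.14). The share of mitochondrial counts was higher in BMP4-TGFB2 within every replicate number, and its part in this result was not tested. Of 30 glycolysis and hypoxia genes 7 rose and 6 fell, near the 20.4% and 21% of all tested genes. Egln3, an oxygen sensor, was lower (-3.37), as was Pdk1 (-1.24), and Pfkfb4 was higher (0.92). Amino acid genes were split as well, the glutamine transporter Slc1a5 falling (-2.01) and Slc1a4 rising (1.82), and 11 rises and 9 falls among 26 became 1 and 5 without the block, with 7 rises without replicate 2 or 3. Among ER folding genes 11 of 28 fell and 6 rose, with 4 and 3 without the block and 5 falls without replicate 3.

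The lists of mesenchymal, collagen and actin genes held more rises than falls. Of 25 tested mesenchymal effectors 18 rose and 1 fell (median 1.31). Fn1, fibronectin (chr1:71585520-71653200), was at 441, 166 and 417 CPM in NT and 1678, 3429 and 4443 CPM with both ligands (3.15 ± 0.38, adjusted p = 0.000127). Per length it went from 71.1 ± 35.7 TPM (SD, n = 3) to 659 ± 293 TPM, and the groups did not overlap. Tenascin C (Tnc, 4.38), Pdgfra (2.73), a receptor of mesenchymal cells, and the neural adhesion molecule Ncam1 (3.19) rose. Vim, the mesenchymal filament vimentin, varied between replicates, at 15.1, 48.1 and 60.5 CPM in NT and 28.2, 67.3 and 334 CPM with both ligands. It rose within each replicate number (1.31 ± 0.34, adjusted p = 0.011), but the groups overlapped and the call was lost without the block (adjusted p = 0.186).

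Transcription factors of the mesenchymal transition rose in 11 of 19 cases and fell in 2; 6 rose in the fit of the 6 libraries, 5 without replicate 3 and 3, the lowest count over all settings, without replicate 2. Snai1, a repressor of E-cadherin, was at 9.67, 12.6 and 13.7 CPM in NT and 32.1, 41.7 and 52 CPM with both ligands (1.79 ± 0.10, adjusted p = 1.1e-06). Zeb1, which represses epithelial genes, was at 0.967, 0.794 and 0.81 and 1.6, 2.95 and 14.4 CPM. Snai1 thus rose evenly, whereas most of the Zeb1 signal came from replicate 3, and without that treated library Zeb1 did not pass (adjusted p = 0.0517; main fit 2.21 ± 0.58, 0.0116). Snai2 (1.66) stayed at 2.13 to 2.35 CPM with both ligands and lost its call in 5 of 15 settings. Ets1 (2.26), Sox4 (1.19) and Hmga2 (1.33) rose and Foxc1 (-1.34) fell.

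Markers of fibroblasts, whose genes overlap with these lists, summed to 12.5 to 30.3 CPM over 14 genes in NT and to 121 to 275 CPM with both ligands, and 6 of 12 tested rose and none fell by the test (4 rises without the block). Besides Lox they were Pdgfra (2.73), Pdgfrb (1.76), Col1a1 (1.72), Postn (1.37) and Col3a1. Postn lost its call in 8 of 15 alternative settings, the fit without the block and the 6-library fit among them. Lox, which crosslinks collagen, made up most of that sum, at 100.5, 129 and 241 CPM with both ligands against 8.78, 5.61 and 12.8 CPM in NT. Dcn, at 2.85, 0.425 and 5.28 CPM in NT and 3.12, 0.422 and 5.82 CPM with both ligands, and Lum and Col1a2 did not pass (adjusted p = 0.841, 0.469 and 0.301), and Thy1 and Fap had at most 6 counts in any of the libraries. Dcn, Lum, Col1a2, Thy1 and Fap are widely used markers of fibroblasts, and they were named after their values were seen. The part of fibroblast RNA in the mesenchymal and matrix lists was not tested.

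Collagens rose in 13 of 19 cases and fell in 2 (median 1.72). Col7a1, the anchoring fibril collagen of epithelial attachment (chr9:108953586-108984875), was at 7.05, 6.46 and 9.84 CPM in NT and 162, 243 and 267 CPM with both ligands (4.85 ± 0.37, adjusted p = 6.64e-06). Col5a3 (5.47), Col15a1 (4.20) and Col12a1 (3.98) rose and Col16a1 (-2.86) fell. Col1a1, the main chain of type I collagen, rose (1.72) but reached no more than 7.52 CPM. Processing enzymes rose with their substrates in 14 of 26 cases, against 3 that fell: Lox (4.07), the lysyl hydroxylase Plod1 (1.62), the prolyl hydroxylase P4ha1 (1.63) and Bmp1, which went from 106, 90.8 and 87.9 to 441, 505 and 471 CPM, were higher, and P3h2 (-2.99) and the transglutaminase Tgm2 (-1.50, exons shared with Rprd1b) lower.

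In the provisional matrix list 13 of 32 rose and 3 fell. Has2, which makes hyaluronan, was at 1.52, 4.71 and 8.82 CPM in NT and 111, 244 and 413 CPM with both ligands, and Fbln2, fibulin 2, was at 23.8, 19.6 and 69 and 618, 834 and 1515 CPM. Replicate 3 was highest for both in each group, and each gene rose in every replicate (Has2 5.83 ± 0.53, Fbln2 4.85 ± 0.25). Fbln5 (-2.74) and Spp1 fell. Of 22 tested basement membrane genes 9 rose and 5 fell, the falls near the 21% of all tested genes. Falls numbered 2 in the 6-library fit and 3 without the block. Lama3, the alpha 3 chain of laminin 332, went from 21.4, 15.1 and 46.8 CPM to 398, 428 and 425 CPM, and the matricellular Smoc2 (4.51) rose, while Lama4 (-1.40) and Col4a6 (-1.86) fell.

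Of 29 tested proteases and inhibitors 16 rose and 3 fell (median 1.004), with 11 rises without the block. Mmp9, the gelatinase that cleaves type IV collagen (chr2:164940780-164955850), was at 0.287, 1.5 and 1.92 CPM in NT and 48.6, 81.4 and 536 CPM with both ligands. Treated replicate 3 was far above the other treated libraries, and even the lowest treated library was well above the highest NT library (7.07 ± 0.61, adjusted p = 1.33e-05). Mmp10 (4.94), the metalloprotease Adam12 (5.21), urokinase Plau (3.03) and the inhibitor Timp1 (1.94) rose.

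Integrin chains changed in both directions. Itgb3, the beta 3 chain that pairs with alpha v to bind vitronectin and fibronectin (chr11:104608000-104670476), was at 0.183, 0.822 and 0.75 CPM in NT and 23.2, 38.9 and 62.9 CPM with both ligands (6.13 ± 0.32, adjusted p = 9.19e-07). Itgav, that alpha v chain, rose by 1.02 and Itgb5, which also pairs with it, by 1.97. Itgb4, the hemidesmosome chain, rose (0.94) while its partner Itga6 fell (-1.56), as did Itga8 (-2.98). The list counted 10 rises and 5 falls among 19. Actin and focal adhesion genes rose in 24 of 40 cases and fell in 4, led by Fhl2 (3.34), the bundling protein fascin (Fscn1, 2.79), Pdlim7 (2.51), palladin (Palld, 2.36) and Rhob (1.71), with 11 rises without the block and 13 without replicate 3. Of 23 targets of YAP and MRTF, which sense stretch and actin, 12 rose and 5 fell, with Ccn1 (2.80), Dlc1 (2.42), Amotl2 (2.17) and Lats2 (1.29) up.

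**Figure D4:**
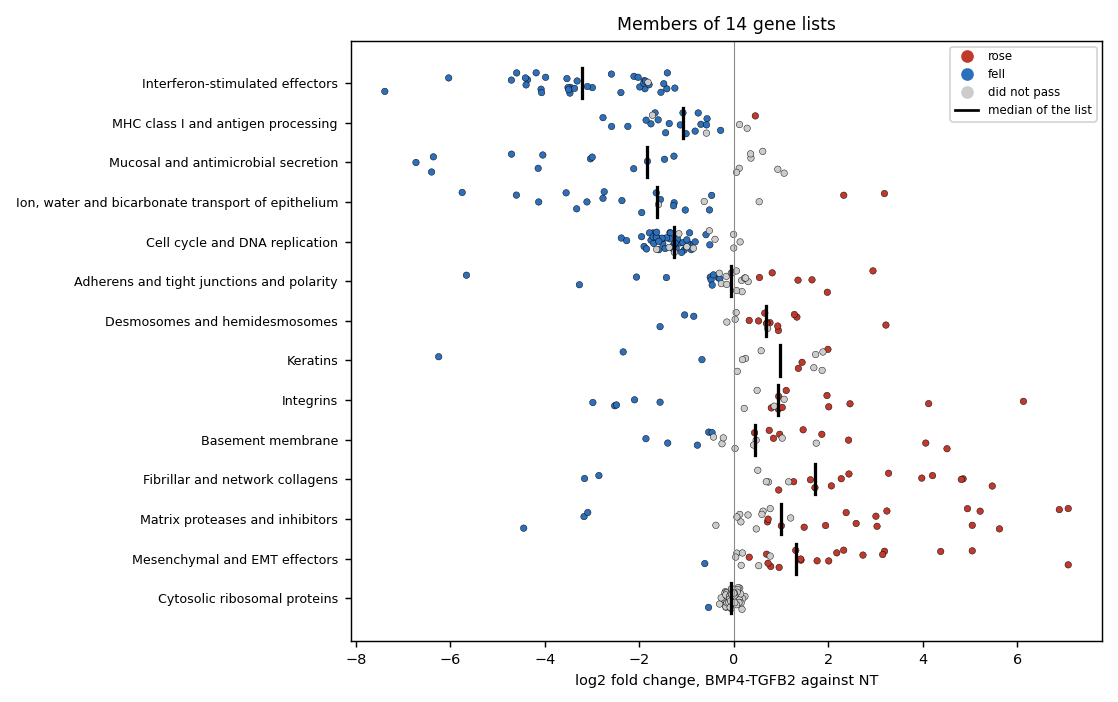
Each point is the log2 fold change of a tested member in BMP4-TGFB2 against NT for 14 lists, red where it rose, blue where it fell and grey where it did not pass; the black bar is the median of the list. Interferon-stimulated effectors lie wholly below 0 (median -3.21), keratins and junction genes spread to both sides, and ribosomal proteins sit at 0 (median -0.06).

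Cdh1, Epcam, Krt8 and Krt18, common markers of epithelial cells, moved by no more than 0.50 log2 units, but other epithelial markers moved further. Of the 12 tested markers of mammary epithelium 1 rose and 3 fell, with log2 fold changes from -0.68 to 1.88. The basal keratin Krt14 rose by 1.37, and Krt5 was higher by 1.88 but did not pass (adjusted p = 0.059). Cdh1, E-cadherin (chr8:106603351-106670246), was at 592, 593 and 617 CPM in NT and 419.8, 449 and 407 CPM with both ligands. It fell by 0.50 ± 0.08 log2 units (adjusted p = 0.000547), with no overlap between groups. Epcam, an epithelial adhesion protein, was at 870.1, 973 and 910.4 and 907, 888 and 704 CPM and did not pass (-0.15 ± 0.11, adjusted p = 0.284). Krt8, a keratin of simple epithelium, was at 1119, 1396 and 1404 CPM in NT and 1527, 1399 and 1729 CPM with both ligands (0.25 ± 0.10, adjusted p = 0.0776). Krt18, its filament partner, was at 949, 984 and 852 and 990.1, 802 and 1174 CPM (0.07 ± 0.13, adjusted p = 0.689). A p above the threshold does not show that these levels were equal. The SE given with each describes its uncertainty and is not a limit on the difference.

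Junction genes changed in both directions. Among 29 adherens and tight junction genes 6 rose and 10 fell (6 falls without the block or without BMP4-TGFB2 replicate 3). The rises were near the 20.4% of all tested genes. Cldn8 (-5.66), Cldn1 (-3.27) and Tjp3 (-2.06, exons shared with Apba3) fell, and Cldn4 (2.94) and Nectin4 (1.98) rose. Desmosomes and hemidesmosomes leaned upward, with 11 of 18 up and 3 down, and plakoglobin (Jup, 0.65), plectin (Plec, 1.33) and the tetraspanin Cd151 (0.76) rose. Of 23 epithelial identity regulators 8 fell and 3 rose, with Grhl1 (-2.04) and Ehf lower.

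Of 14 tested keratins 3 rose and 3 fell, near the 20.4% and 21% of all tested genes. Krt14, the basal keratin, rose from 169, 284 and 403 CPM to 919, 942 and 431 CPM (1.37 ± 0.35, adjusted p = 0.01). Its rise was small in replicate 3, and the call was lost in 4 of 15 settings, without replicate 1 among them (adjusted p = 0.0732). Krt17 (1.99) and Krt80 (1.44) rose, while Krt15 (-2.34), also basal, Krt23 (-6.25) and Krt19 (-0.68) fell, the last with its call lost in 7 of 15 settings. Among 22 basal and myoepithelial genes 10 rose (6 without replicate 2 or 3) and 4 fell, the falls near the 21% of all tested genes. The stem cell receptors Lgr6 (5.18) and Procr (3.29) rose and Sox10 (-1.89) fell. Of 13 cornified envelope genes 4 rose, stratifin (Sfn, 2.36), loricrin (Lor, 2.42) and Anxa8 (3.27) among them, and 4 fell, with Dmkn (-3.85) and Sbsn (-2.30, exons shared with Tmem147os) named.

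The lists of growth factors, angiogenic factors and the Notch pathway held more rises than falls. Jag1, a Notch ligand (chr2:137081456-137116644), was at 15.5, 6.52 and 12.5 CPM in NT and 318, 275 and 474 CPM with both ligands (4.98 ± 0.22, adjusted p = 3.94e-07). Pdgfb, a growth factor for pericytes and fibroblasts (chr15:79995874-80014977), was at 16.5, 14.1 and 31.2 and 452, 465 and 582 CPM (4.69 ± 0.24, adjusted p = 7.42e-07). Both were raised in all 3 replicates, with no overlap between groups. Fgf2 (4.16, exons shared with Nudt6), Pdgfa (1.84, exons shared with 6330403L08Rik) and the ephrin Efna1 (2.35) rose, and the ERBB ligand Nrg2 (-6.48) fell. Among 35 receptors and ligands of the ERBB, FGF, PDGF, MET and EPH families 15 rose and 8 fell, with 5 falls in the 6-library fit. The angiogenic factors Vegfa, Vegfc (2.48), Angptl2 (1.85) and Angptl4 (2.30) rose, as 9 of 24 in that list did against 4 that fell. In the Notch pathway 7 of 17 rose and 4 fell, the receptors Notch2 (0.72) and Notch4 (2.45) upward and Dtx1 (-4.77) and Rfng (-1.55), modifiers of the pathway, downward.

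The Wnt, retinoic acid and MAPK lists moved both ways. Wnt9a (3.87), Wnt11 (4.51), Wnt7b (1.13) and the receptor Fzd2 (1.47) rose, the secreted Wnt inhibitor Wif1 fell (-4.81), and the list held 11 rises and 10 falls among 29, with 8 and 5 without the block and 7 and 7 in the 6-library fit, 7 rises without replicate 2 and 6 falls without replicate 1. Retinoic acid genes, 6 up and 4 down of 18, included Stra6, the retinol uptake receptor (4.68). The MAPK feedback genes Spry1 (-3.26) and Etv5 (-3.14) fell while Maff (1.78) rose, 12 up and 10 down among 32, with 7 rises without the block. Of 21 genes of the IGF, insulin and growth hormone pathway 5 rose and 4 fell, near the 20.4% and 21% of all tested genes. The cytokine feedback gene Socs2 (-2.32) went down and Irs2 (1.52) went up. Guidance and neural adhesion genes counted 9 rises and 7 falls among 27, with Nectin3 (3.19) and Unc5b (2.53) up and Sema3b (-3.58) and Sema3e (-1.66) down. Ciliary genes had 8 rises and no fall by the test among 25, with 5 rises in the 6-library fit. Foxj1, the master factor of motile cilia, was at 5.9, 2.04 and 1.71 CPM in NT and 32, 19.3 and 19.6 CPM with both ligands (2.98 ± 0.25, adjusted p = 1.23e-05). Iron handling was split, with 7 rises and 8 falls among 19, the iron importer Slc11a2 (-1.24) and the reductase Steap4 (-3.57) lower.

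The state with both ligands was also set against each single ligand, to show which genes the addition of the other ligand changed. These comparisons share the BMP4-TGFB2 libraries. With both ligands against BMP4 alone, 3476 of 15319 genes passed (22.7%), 1634 higher (10.7%) and 1842 lower (12%), and 1412 passed without the block. Against TGFB2 alone 6 genes passed (0.0392%), 2 higher (0.0131%) and 4 lower (0.0261%), with 1056 genes at an unadjusted p under 0.05; the count depended on the model, at 0 without the block, 181 with DESeq2, 21 with limma voom and 500 in a fit of the 6 libraries of those groups. A small count in edgeR's test therefore does not show that both states were equal.

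The 6 genes called in edgeR's test with the block, none of them called without it, are given in each group. Id2 was at 139.6, 150.5 and 111 CPM with TGFB2, 489, 390.1 and 359.7 CPM with BMP4 and, as above, at 316, 290.4 and 228 CPM with both, near the NT level. It rose by 1.05 ± 0.11 log2 units from TGFB2 alone (adjusted p = 0.00961). Wnt11, a Wnt ligand named although its mean level was below the limit set for named genes in that comparison, was at 0.157, 0.142 and 0.57 CPM in NT, 0.497, 0.802 and 1.08 CPM with TGFB2, 13.3, 10.9 and 19.1 CPM with BMP4 and 4.61, 7.03 and 6.84 CPM with both (3.01 against TGFB2 alone, adjusted p = 0.0101). Its level with both ligands lay between those with each. Spp1 was at 1009.8, 1504 and 874 CPM with TGFB2 and 917, 1258 and 1101 CPM with BMP4, so that with both ligands (327, 587 and 417 CPM) it was lower than with either in every library (-1.36 against TGFB2 alone, adjusted p = 0.0139). The other 3 were Muc20 (-1.64), the peptide transporter Slc15a2 (-1.61) and the secreted protein Crispld2 (-1.35), all lower with both ligands than with TGFB2 alone. Muc20 and Crispld2 were lower with both than with either ligand, and Slc15a2 was near the level it had with BMP4.

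**Figure D5:**
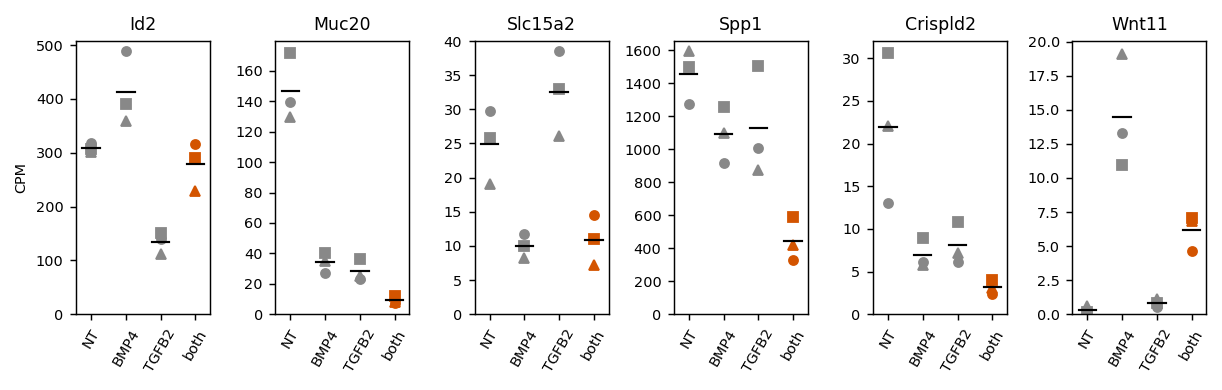
CPM in each library of the 4 groups for the 6 genes that passed in BMP4-TGFB2 against TGFB2, with a bar at the mean of 3 libraries, marker shapes for replicate numbers and BMP4-TGFB2 in orange. Id2 returns to about its NT level with both ligands, Wnt11 lies between TGFB2 and BMP4, and Muc20, Spp1 and Crispld2 are lowest with both.

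Against BMP4 alone, 9 of 16 tested milk genes were lower with both ligands and 1 was higher, and of 19 mucosal secretory genes 10 were lower and none higher by the test. Of 29 matrix proteases and inhibitors 9 were higher and 4 lower, and of 19 collagens 8 were higher and 5 lower. Mmp9 was at 0.232, 1.74 and 12.9 CPM with BMP4 and rose by 5.69 ± 0.54 log2 units from there to the state with both ligands (adjusted p = 9.57e-05). Klk14, at 111, 63.5 and 32.5 CPM with BMP4, fell by 5.34 ± 0.47 (adjusted p = 6.04e-05). The other large differences were rises of Adgra1 (5.19), Olfm2 (3.95), Stab1 (3.80) and the membrane protein Gpm6b (3.55), and falls of Pip (-5.15), Wif1 (-4.61), Klk10 (-4.48), the transporter Abcc3 (-4.33) and Ltf (-4.22). Of the BMP SMAD1/5 list 5 of 24 were higher and 7 lower with both ligands than with BMP4 alone, and of the TGFb SMAD2/3 list 20 of 28 were higher and none lower by the test. Against TGFB2 alone, 1 milk gene and 1 mucosal gene were lower and none was higher by the test. Median changes from NT with TGFB2 alone were -2.59 for milk, -1.73 for mucosal, 1.51 for collagen and -2.66 for interferon-stimulated effector genes. With both ligands these medians were -2.27, -1.83, 1.72 and -3.21.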

How the data were processed

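Poly(A) RNA of 12 libraries was sequenced in paired reads. The processing notes of the submitters list Salmon 1.2.1, STAR 2.7.5b and bcl2fastq 2.17 and the build GRCm38.p6, without their roles. The authors deposited estimated counts per gene, rounded here to whole numbers, which changed the total by 0.000361%, and TPM. The TPM values were used here only to describe levels of some named genes, between genes and between groups, and no test was run on them. A deposited table, per the file headers, lists all libraries as unstranded and of the same batch, so genes with overlapping exons are not separated; partners above 10% of a gene's mean CPM are named.

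Genes were kept by filterByExpr of edgeR 4.0.16 (minimum count 10; R 4.3.3), which left 15319 genes with 99.9% of counts. Each comparison used edgeR's quasi-likelihood test with TMM factors (0.971 to 1.03), a single model of the 4 groups (12 libraries) and the replicate number as a block, with Benjamini-Hochberg adjustment over all tested genes at 0.05. The same-numbered NT and BMP4-TGFB2 libraries deviated from their group means with correlations of 0.233, 0.0256 and 0.191 across genes, so the data do not settle that the numbers pair the cultures; counts without the block are given. No pair of libraries within a group agreed within sampling noise (lowest chi-square per degree of freedom 31.9). The fit was first tested on simulated data. Alternatives were DESeq2 size factors, no filter, DESeq2 1.42.0, limma voom 3.58.1, no block, the 6 libraries alone, and each library or replicate number left out.

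The comparison and the 65 lists of 1552 genes (59 of functions, 6 of cell type markers) were chosen with earlier results of these data known. Named genes were the 12 largest rises and falls with separated libraries and an average log2 CPM of 2 or more (6 per direction against each ligand), up to 5 passing members of each list with the smallest p, at most 2 of them against its direction, and a fixed set of 31 genes; Wnt11 in the comparison with TGFB2, Ptprc, Coro1a, Lyz2, Dcn, Lum, Col1a2, Fap, Thy1 and Pdgfrb as cell type markers, and Cdk4 and Ccnd2 were named after their values were seen. Some genes chosen by this rule are not reported here. Gene positions are from GENCODE M21, which holds all 305 identifiers chosen, 294 in the version deposited. Promoter sequences are from RefSeq. SMAD motifs were searched in the same windows. GGCGCC (SMAD1/5) was found for 6 of 15 BMP SMAD1/5 members with a window (40%), against 23.8% of tested genes with a window. GTCTAGAC (SMAD3/4) was found for 0 of 14 TGFb SMAD2/3 members with a window, against 0.29% of tested genes. Binding was not tested.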

Additional observations from a re-analysis of the deposited data

How the results depend on the processing

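For BMP4-TGFB2 against NT, the count of 6342 genes stayed within 1.5 times under DESeq2 size factors, no filter, DESeq2 and limma voom, and moved to 4007 without the replicate block and to 3941 with the block in the 6 libraries alone. Leaving out single libraries or a replicate number gave 3915 to 6172. Between 3803 and 6311 of the 6342 genes were called again in the same direction and 0 in the opposite one in any of these 15 settings. Against BMP4, 3476 genes became 1412 without the replicate block and 1512 to 2694 when libraries or a replicate number were left out. Against TGFB2, the 6 genes became 0 without the replicate block, 500 with the block in the 6 libraries alone, 10 with DESeq2 size factors, 136 without the filter, 181 with DESeq2, 21 with limma voom, and 0 to 6 when libraries or a replicate number were left out. The cause of these differences was not tested. The replicate numbers did not meet the criterion for paired samples, since the same-numbered deviations of replicate 2 correlated at 0.0256.

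Of 305 genes chosen for naming 297 passed against NT, 44 of them lost the call in at least 1 setting and 0 reversed. The settings that leave out a library of a group assume that the remaining libraries vary like the other groups. With 28543062 to 37547368 counts per library, genes near 1 CPM rest on few reads, and their fold changes are the least certain. Of 113 list counts above 0, 52 moved by more than 1.5 times without the block or in the 6-library fit; 35 of these were counts of 8 or fewer, and the others are given beside their list.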
